A study of Homo sapiens with 6 samples.

Results

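The 39 genes described here encode proteins of homologous recombination, of the Fanconi anaemia pathway and of the checkpoint signalling that accompanies both. They were taken by gene symbol from the 39282 genes of the deposited tables, and all 39 were found. The filter on low counts kept 16855 genes and 38 of the 39. The exception was FANCD2OS, a neighbour of FANCD2 with 1 read in 1 library and 0 in the other 5. The data were RNA-seq of poly(A)-selected RNA from 6 libraries of 2 established human tumour lines, PA-1 (ovarian teratocarcinoma) and TOV21G (ovarian clear cell carcinoma). In each line, 1 library came from cells infected with lentivirus carrying hairpin 1 against MEX3A (sh-MEX3A#1), 1 from cells with hairpin 2 (sh-MEX3A#2) and 1 from cells with a scramble hairpin (sh-Ctrl), called the control here. PA-1 was grown in EMEM and TOV21G in a mixture of MCDB 105 and Medium 199, each with serum, so medium and line cannot be told apart. The design text calls the depleted cells clones, and no label states that separate cultures were used within a line. The p-values therefore measure only the spread between these libraries.

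Homologous recombination repairs a DNA double-strand break by copying an intact sister chromatid. MRE11, RAD50, NBN and RBBP8 start to cut back the broken end, BRCA1 and BARD1 promote this step, and PALB2, BRCA2 and a further set of factors act in the strand exchange that follows. The Fanconi pathway deals with DNA interstrand crosslinks: a core complex with the E2 enzyme UBE2T attaches ubiquitin to the FANCD2 and FANCI pair, and later steps feed into recombination. POLQ encodes the polymerase of an alternative end-joining route. Many of these genes are transcribed mainly in S and G2 phase of the cell cycle, when a sister chromatid is at hand, and inherited loss of BRCA1 or BRCA2 predisposes to ovarian cancer.

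Promoter sequences were searched for E2F sites, because E2F factors are known to drive S-phase transcription of repair genes. RefSeq (GRCh38.p14) gave 48 windows of the 250 bases before a transcript start for 35 of the 39 genes, with none for FANCI, FANCD2OS, NBN and RAD54B. An E2F form (TTCCCGC, the variant TTGGCGC, the variant TTCGCGC or the variant TTGCCGC, either strand) was in 13 of the 48 windows (27.1%), against 3822 of 35116 windows of all genes (10.9%). The CHR element (TTTGAA or TTCGAA) was in 5 windows (10.4%, against 14.3% of all) and CCAAT in 21 (43.8%, against 32.0% of all), and no motif contains another. The windows also held more CpG than those of all genes, with a median of 20 against 11. Every E2F form searched contains a CG, and the part of CpG content in the E2F share was not tested. These matches are descriptions of letters, not of binding. Shown are the windows of the 3 genes with the smallest p-values in TOV21G below that have one, and of FANCF, chosen after its values were seen because it had no reads in TOV21G. The BRCA1 window is chr17:43125365-43125614 (minus strand), POLQ is chr3:121545989-121546238 (minus), FANCD2 is chr3:10026187-10026436 (plus) and FANCF is chr11:22625824-22626073 (minus). Each is written 5′ to 3′ and ends at the base before the transcript start, with an E2F match in capitals.
BRCA1: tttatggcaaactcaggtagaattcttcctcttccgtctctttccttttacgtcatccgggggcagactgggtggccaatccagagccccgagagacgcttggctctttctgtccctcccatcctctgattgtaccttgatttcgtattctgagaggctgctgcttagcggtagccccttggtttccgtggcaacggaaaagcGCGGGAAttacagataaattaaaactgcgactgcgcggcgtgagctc
POLQ: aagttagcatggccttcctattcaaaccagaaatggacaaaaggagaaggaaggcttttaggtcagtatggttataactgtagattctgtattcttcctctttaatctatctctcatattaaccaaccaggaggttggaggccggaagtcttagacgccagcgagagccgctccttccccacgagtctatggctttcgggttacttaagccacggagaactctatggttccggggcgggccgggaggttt
FANCD2: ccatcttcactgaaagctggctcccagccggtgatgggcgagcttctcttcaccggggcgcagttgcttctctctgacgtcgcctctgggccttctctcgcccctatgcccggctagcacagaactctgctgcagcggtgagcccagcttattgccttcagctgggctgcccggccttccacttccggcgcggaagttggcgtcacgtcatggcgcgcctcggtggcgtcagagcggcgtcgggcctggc
FANCF: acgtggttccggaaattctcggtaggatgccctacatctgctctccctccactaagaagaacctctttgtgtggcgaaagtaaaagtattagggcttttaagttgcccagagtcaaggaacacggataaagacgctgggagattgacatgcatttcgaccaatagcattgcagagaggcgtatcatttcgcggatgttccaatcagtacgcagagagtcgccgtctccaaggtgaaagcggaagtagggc
The BRCA1 window held 1 match, which starts 47 bases before the transcript start, and the other windows shown held 0. FANCF had 14 CpG in its window.

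MEX3A, whose protein binds RNA and has a RING domain, was checked first. In PA-1 it stood at 41.2 CPM with hairpin 1 and 54.9 CPM with hairpin 2, against 137 CPM in the control, where CPM is the count scaled by the TMM-adjusted library total. TOV21G had 40.1 and 33.1 CPM with the hairpins, against 78.3 CPM in the control. Each depleted library thus kept between 30.0% and 51.2% of its control. The edgeR quasi-likelihood test with Benjamini-Hochberg adjustment over all genes did not pass the threshold of 0.05 in PA-1 (log2 fold change -1.51, SE 0.28, adjusted p = 1) or in TOV21G (-1.10, SE 0.29, adjusted p = 0.417). DESeq2 passed it in PA-1 (-1.53, adjusted p = 0.0478) and not in TOV21G (-1.09, adjusted p = 0.164). Library totals were 14654628 to 19495162 expected counts. The p53 target CDKN1A, an inhibitor of cell cycle kinases, had 35.4 and 105 CPM with the PA-1 hairpins, against 18.9 CPM in the control, and 1103 and 2168 CPM with the TOV21G hairpins, against 692 CPM in the control. MDM2, a p53 target that also degrades p53, had 367 and 502 CPM with the PA-1 hairpins, against 164 CPM, and 1058 and 654 CPM with the TOV21G hairpins, against 377 CPM. Neither gene passed the edgeR test in either line. The labels give the tissue as ovarian surface epithelium. A list of 9 epithelial markers summed to 279 to 418 CPM in PA-1 and 426 to 512 CPM in TOV21G. KRT8 (148 to 216 CPM in PA-1 and 60.0 to 110 CPM in TOV21G) and KRT18 (118 to 183 CPM in PA-1 and 81.3 to 139 CPM in TOV21G) were present in both lines, while PAX8 stood at 0 to 0.189 CPM in PA-1 and 243 to 273 CPM in TOV21G, KRT7 at 0 in PA-1 and 1.17 to 3.83 CPM in TOV21G, and MUC16 under 1 CPM in both. The 7 teratocarcinoma markers (SOX2, LIN28A and others) summed to 3755 to 4497 CPM in PA-1 and 131 to 161 CPM in TOV21G, and 6 clear cell markers to 214 to 971 CPM in PA-1 and 2466 to 7005 CPM in TOV21G. Blood markers summed to at most 0.462 CPM in any library, and 4 endothelial genes to 123 to 246 CPM in PA-1. The 4 fibroblast genes summed to 103 to 188 CPM in PA-1 and 15.9 to 203 CPM in TOV21G, mostly from COL1A1, which had 104 and 189 CPM with the TOV21G hairpins, against 9.03 CPM in the control. Its part in the results below was not tested.

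Of the 38 genes, 33 were lower with both hairpins than in the control in TOV21G, where 31.9% of all genes tested were, and 0 were higher with both, where 31.3% of all genes were. In PA-1, 19 were lower with both hairpins (34% of all genes) and 8 were higher with both (33.8%). At least 2-fold lower with both hairpins were 5 genes in TOV21G (3.36% of all genes), namely BRCA1, MND1, FANCI, FANCD2 and POLQ, and 0 in PA-1 (0.682%). The median log2 fold change was -0.89 in TOV21G and -0.11 in PA-1, against 0.02 and 0 over all genes tested. FANCF, which had no reads in TOV21G, counts as 0 in the TOV21G median, which was -0.92 without it. The 2 hairpins of a line are set against the same control library, so their shared side is not independent evidence. In bulk RNA, fewer cells that express a gene and less RNA per cell cannot be told apart.

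No single gene passed the test in either line by edgeR, for any of the 16855 genes (0% called). At an unadjusted p under 0.05, 17 of the 38 were lower in TOV21G (5.41% of all genes) and 0 higher (4.15%). In PA-1, 0 were lower (0.392%) and 0 higher (2.18%). DESeq2 called 2 of the 38 lower in TOV21G (0.783% of all genes), FANCI (adjusted p = 0.0128) and BRCA1 (adjusted p = 0.0272), and 0 higher (0.558%). In PA-1 it called 0 lower (0.0119%) and 0 higher (0.202%). A single library decided the TOV21G count: without TOV21G hairpin 1, where the spread comes from the PA-1 pair and the lone TOV21G hairpin is assumed to vary alike, 18 of the 38 passed as lower by edgeR, among 1643 genes in all. Over the mean of both lines 5 passed in that fit, among 664 genes in all, and 0 with all libraries. Fitted alone, the lines had a biological coefficient of variation of 0.164 (PA-1) and 0.389 (TOV21G), against 0.295 shared. With TOV21G fitted alone, 9 of the 38 had an unadjusted edgeR p under 0.05, against 17 with the shared spread. The share of all genes at that threshold in that fit is not given here.

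**Figure D1:**
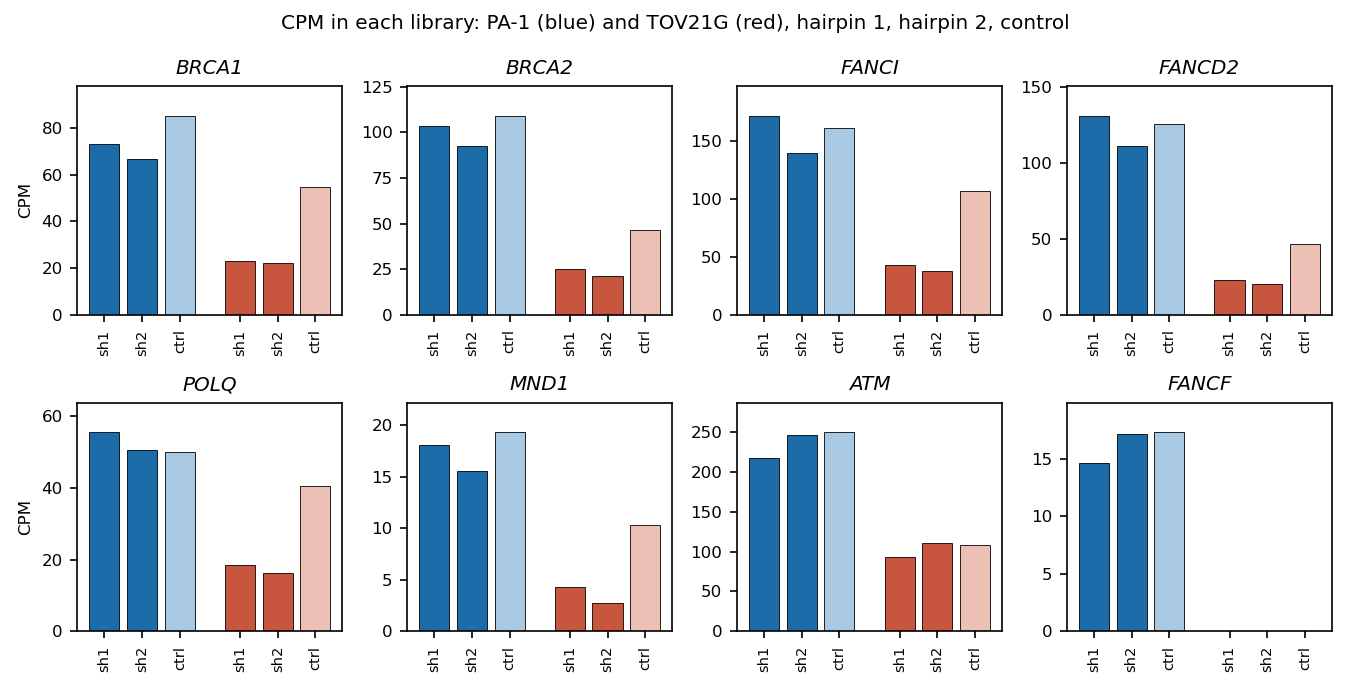
CPM of 8 repair genes in each library (bars; hairpin 1 as sh1, hairpin 2 as sh2, control as ctrl), PA-1 in blue and TOV21G in red, 1 library per bar and so without error bars. In TOV21G both hairpin bars of BRCA1, BRCA2, FANCI, FANCD2, POLQ and MND1 lie below the control bar, and FANCF is at 0.

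Among the BRCA and PALB2 mediators, BRCA1 stood at 23.1 and 22.2 CPM with the TOV21G hairpins, against 54.7 CPM in the control. In PA-1 it stood at 73.2 and 66.9 CPM, against 85.2 CPM. Both hairpins were below the control in each line, by more in TOV21G: the log2 fold change was -1.27 (SE 0.23, edgeR adjusted p = 0.382) in TOV21G and -0.28 (SE 0.23, adjusted p = 1) in PA-1. BRCA2, which acts in strand exchange, had 25.1 and 21.0 CPM with the TOV21G hairpins, against 46.4 CPM in the control (-1.01, SE 0.25, adjusted p = 0.411). Its PA-1 values were 103 and 92.5 CPM, against 109 CPM (-0.16, SE 0.25). BARD1, the partner of BRCA1 in a ubiquitin ligase, had 13.6 and 11.5 CPM with the TOV21G hairpins, against 27.0 CPM, and 43.2 and 34.1 CPM with the PA-1 hairpins, against 46.8 CPM. It lay below the control with both hairpins in both lines (-1.10 in TOV21G and -0.28 in PA-1). The helicase gene BRIP1 was lower with both hairpins in TOV21G (-0.92, SE 0.42). PALB2, which bridges BRCA1 and BRCA2, differed from these: hairpin 1 lay above the control and hairpin 2 below it in TOV21G (-0.12, SE 0.30), and both lay above it in PA-1 (0.18, SE 0.30).

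The 10 strand-exchange factors (RAD51B, RAD51C, RAD51D, XRCC2, XRCC3, RAD51AP1, RAD54L, RAD54B, MND1 and PSMC3IP) had a median log2 fold change of -0.82 in TOV21G and -0.03 in PA-1. MND1, which acts in strand exchange with PSMC3IP, stood at 4.29 and 2.75 CPM with the TOV21G hairpins, against 10.3 CPM in the control (-1.55, SE 0.37, edgeR adjusted p = 0.397). In PA-1 it had 18.1 and 15.6 CPM, against 19.3 CPM (-0.20, SE 0.36). Both hairpins were below the control in each line. RAD51AP1 and RAD54L, which stimulate strand exchange, had log2 fold changes of -1.08 and -1.17 in TOV21G and of 0.00 and -0.06 in PA-1. RAD51C, a subunit of the BCDX2 and CX3 repair complexes, was the 1 measured gene with a positive fold change in TOV21G: it had 32.6 CPM with hairpin 1 and 18.3 CPM with hairpin 2, against 21.2 CPM in the control (0.26, SE 0.41). Its PA-1 values were 12.6 and 12.5 CPM, against 10.4 CPM. The groups overlapped in TOV21G and not in PA-1, and without TOV21G hairpin 1 the TOV21G value was -0.21. RAD51B, a subunit of BCDX2, had 6.13 and 4.03 CPM with the TOV21G hairpins, against 8.25 CPM, and 7.28 and 6.51 CPM with the PA-1 hairpins, against 4.91 CPM. It lay below the control with both hairpins in TOV21G and above it with both in PA-1.

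The 6 end-processing genes had a median log2 fold change of -0.76 in TOV21G and -0.07 in PA-1. The nuclease gene EXO1 had the smallest p in PA-1 of all 38 genes (unadjusted p = 0.272): its hairpin libraries had 29.9 and 24.9 CPM and its control 36.7 CPM. In TOV21G it stood at 17 and 11.1 CPM, against 30.5 CPM. Both hairpins were below the control in both lines, with log2 fold changes of -0.42 (SE 0.34) in PA-1 and -1.12 (SE 0.34) in TOV21G. MRE11, the nuclease of the MRN complex, had 64.0 and 79.6 CPM with the PA-1 hairpins, against 91.9 CPM, and 23.9 and 15.2 CPM with the TOV21G hairpins, against 30.9 CPM (-0.36 in PA-1 and -0.66 in TOV21G). RAD50, its ATPase partner, had 113 and 116 CPM with the TOV21G hairpins, against 144 CPM, and 63.4 and 66.8 CPM with the PA-1 hairpins, against 66.3 CPM. It lay below the control in TOV21G and on both sides of it in PA-1. RBBP8, which encodes the resection factor CtIP, had 117 and 83.6 CPM with the TOV21G hairpins, against 182 CPM (-0.86, SE 0.29), and 117 and 103 CPM with the PA-1 hairpins, against 104 CPM. The helicase gene BLM (-1.08) and NBN (-0.60) were also lower with both hairpins in TOV21G.

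Checkpoint signalling genes lay nearest to the control in TOV21G: the median over the 5 genes was -0.10 on the log2 scale, against -0.13 in PA-1. By hairpin, the TOV21G medians were -0.35 with hairpin 1 and -0.05 with hairpin 2. ATM, the kinase that responds to double-strand breaks, stood at 93.8 and 111 CPM with the TOV21G hairpins, against 108 CPM in the control (-0.08, SE 0.25, edgeR adjusted p = 0.957). In PA-1 it stood at 217 and 247 CPM, against 250 CPM (-0.11, SE 0.25). The groups overlapped in TOV21G, and without hairpin 1 its value there was 0.04. ATR, the kinase of stalled replication forks, had 70.0 and 83.6 CPM with the TOV21G hairpins, against 94.7 CPM, and 75.5 and 87.3 CPM with the PA-1 hairpins, against 71.7 CPM. Both of its hairpins lay below the control in TOV21G and above it in PA-1. CHEK1, the kinase downstream of ATR, had 80.0 and 91.6 CPM with the PA-1 hairpins, against 111 CPM, and 36.9 and 57.9 CPM with the TOV21G hairpins, against 73.5 CPM (-0.38 in PA-1 and -0.63 in TOV21G). CHEK2 and TOPBP1, a kinase downstream of ATM and an activator of ATR, had TOV21G log2 fold changes of -0.10 and -0.06.

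The Fanconi core complex genes and UBE2T had a median log2 fold change of -0.98 in TOV21G and -0.13 in PA-1. The TOV21G median counts FANCF, which had no reads there, as 0. All 8 genes of this group that had reads in TOV21G were lower there with both hairpins. FANCA, a core subunit, stood at 22.2 and 16.2 CPM with the TOV21G hairpins, against 42.1 CPM in the control (-1.13, SE 0.30, edgeR adjusted p = 0.417), and at 54.1 and 45.5 CPM with the PA-1 hairpins, against 50.6 CPM. FANCB, also a core subunit, had 4.42 and 3.63 CPM in TOV21G, against 8.25 CPM, and 22.2 and 19.4 CPM in PA-1, against 22.5 CPM. The hairpin and control libraries of both genes were apart in TOV21G, and those of FANCA overlapped in PA-1. FANCL, the ubiquitin ligase subunit, and UBE2T had TOV21G log2 fold changes of -1.06 and -1.16, and FANCE had the smallest in size, -0.37. FANCF had 14.7 and 17.1 CPM with the PA-1 hairpins, against 17.3 CPM, and 0 reads in all 3 TOV21G libraries.

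FANCD2 and FANCI, the pair that the core complex modifies, had the lowest median of the role groups in TOV21G, -1.26, against -0.05 in PA-1. FANCI stood at 43.3 and 37.4 CPM with the TOV21G hairpins, against 106 CPM in the control (-1.40, SE 0.26, edgeR adjusted p = 0.382). In PA-1 it stood at 172 and 140 CPM, against 161 CPM (-0.05, SE 0.26). The TOV21G groups were well apart and the PA-1 groups overlapped. FANCD2 had 22.8 and 20.0 CPM with the TOV21G hairpins, against 46.9 CPM (-1.13, SE 0.25, edgeR adjusted p = 0.385), and 131 and 111 CPM with the PA-1 hairpins, against 126 CPM (-0.05, SE 0.25). Again only the PA-1 values overlapped. POLQ had 18.5 and 16.4 CPM with the TOV21G hairpins, against 40.5 CPM (-1.21, SE 0.24, edgeR adjusted p = 0.382), and 55.6 and 50.5 CPM with the PA-1 hairpins, against 50.0 CPM (0.09, SE 0.25). It lay below the control in TOV21G and slightly above it in PA-1.

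**Figure D2:**
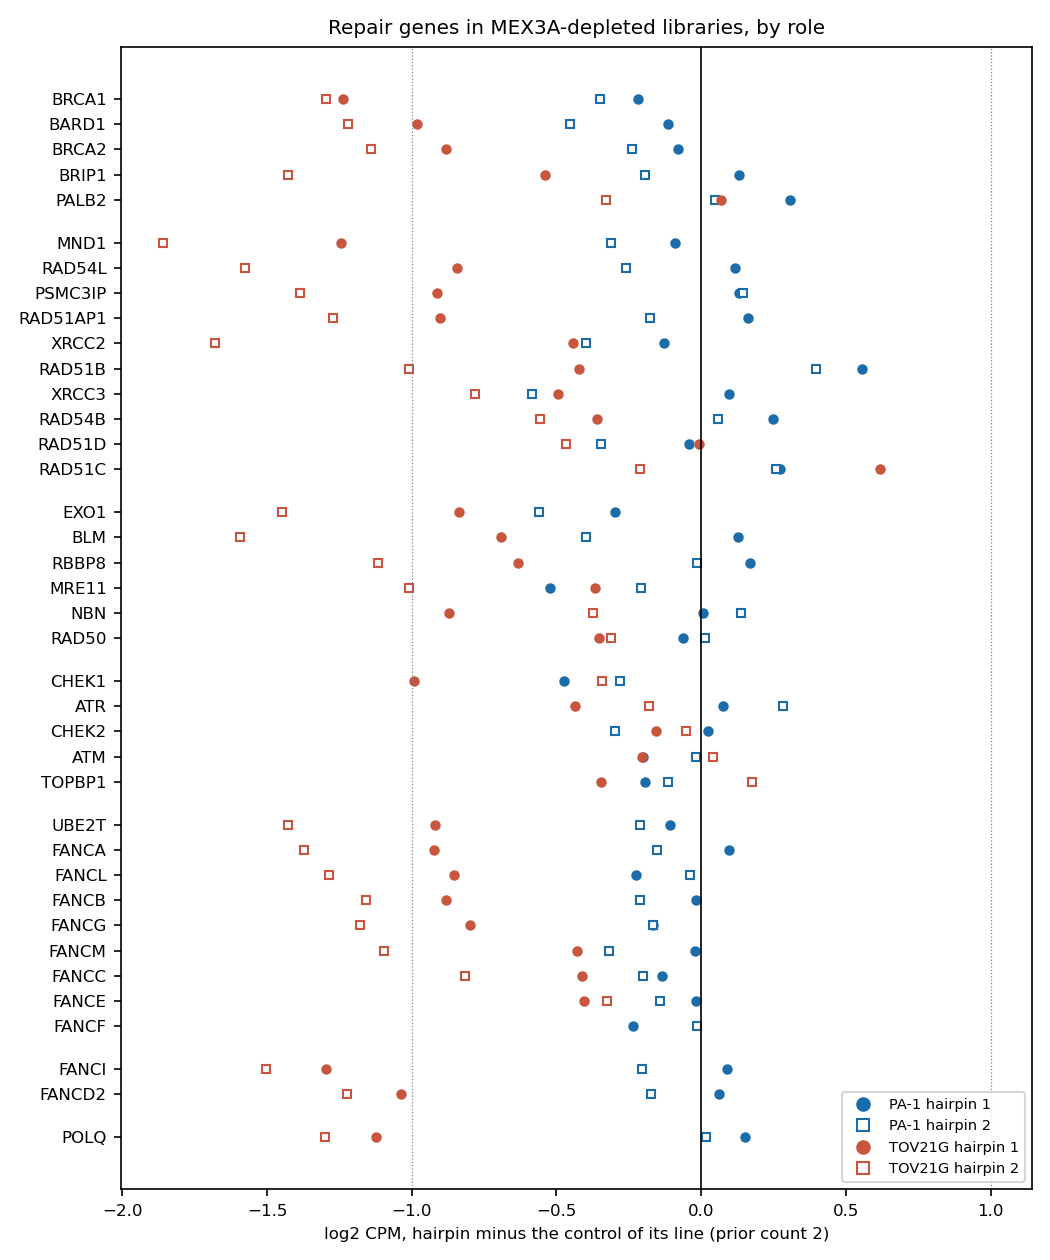
Difference in log2 CPM (prior count of 2) between each hairpin and the control of its line for the 38 repair genes, grouped by role; filled circles are hairpin 1 and open squares hairpin 2, PA-1 in blue and TOV21G in red, and dotted lines mark 2-fold. In TOV21G, 33 genes have both points left of 0, against 19 in PA-1; the TOV21G points of FANCF are left out because it had 0 reads there.

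Hairpin 2 gave the lower values more often than hairpin 1. The median difference of the 38 genes was -0.66 with hairpin 1 and -1.13 with hairpin 2 in TOV21G. In PA-1 it was -0.02 with hairpin 1 and -0.19 with hairpin 2. FANCF, without reads in TOV21G, counts as 0 in the TOV21G medians. Hairpin 2 lay below hairpin 1 for 29 of 38 genes in TOV21G, where 48.2% of all genes did, and for 28 of 38 in PA-1, where 48.3% did. In TOV21G all 5 checkpoint genes went the other way, as did RAD50, NBN and FANCE. MEX3A itself was lower with hairpin 2 in TOV21G and with hairpin 1 in PA-1. On the deposited TPM, which also corrects for transcript length, 10 of the 38 were lower with both hairpins in PA-1, against 19 on CPM, and 32 in TOV21G. That scale moved all genes: the median of all genes tested was 0.06 with PA-1 hairpin 1 and 0.12 with TOV21G hairpin 1. Relative to the all-gene median, 16 of the 38 were lower with both hairpins in PA-1 and 32 in TOV21G.

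The TOV21G fold change was below the PA-1 fold change for 34 of the 37 genes with reads in both lines, against 50.7% of all genes tested. ATM, CHEK2 and TOPBP1 were the exceptions, all of them checkpoint genes, by at most 0.09 on the log2 scale. The median difference between the lines was -0.82 over the 37 genes and -0.01 over all genes. Tested as an interaction in edgeR, 0 of 16855 genes passed (0%), and DESeq2 also called 0 of the 38 (0.0771% of all genes lower and 0.0356% higher). At an unadjusted p under 0.05 there were 6 of the 38, all lower in TOV21G (2.5% of all genes, with 1.31% higher). The smallest p-values were those of POLQ (-1.30, SE 0.35), FANCI (-1.35, SE 0.38), FANCD2 (-1.08, SE 0.36) and BRCA1 (-0.99, SE 0.33), each with an adjusted p of 1. A difference between the lines' responses was therefore not shown for any single gene. ATR, NBN, POLQ, PSMC3IP, RAD51B and RAD54B, 6 genes, were lower with both hairpins in TOV21G and higher with both in PA-1 (7.29% of all genes).

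**Figure D3:**
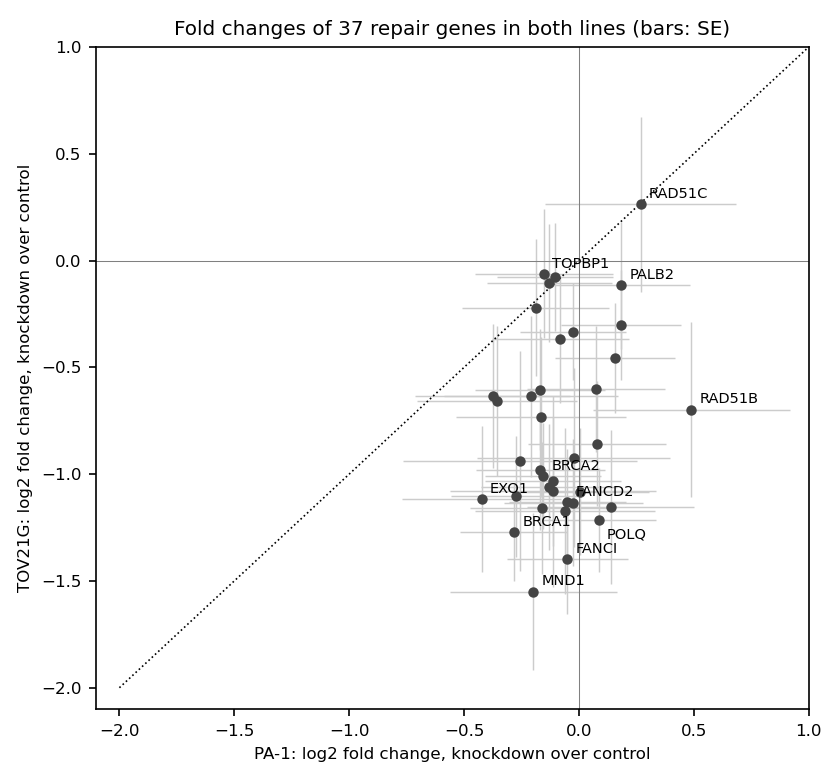
Log2 fold change, knockdown over control, of 37 repair genes in PA-1 (horizontal) and TOV21G (vertical), with bars of 1 SE from the edgeR fit; the dotted line marks equal values. Of the 37 points, 34 lie below the dotted line, and RAD51C is the 1 point above 0 on the vertical axis.

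Levels of these genes differed between the lines. Averaged over the hairpin and control groups, 26 of 38 passed the edgeR test as higher in PA-1 than in TOV21G (20.6% of all genes) and 2 as lower (20%). The 26 include FANCF, as does every later count out of the 38 for this difference, though FANCF passed the low-count filter only through PA-1. All 3 PA-1 libraries stood above all 3 TOV21G libraries for 30 genes, FANCF among them (30.8% of all genes). They stood below them for 2 (29.4%). FANCD2 was higher in PA-1 by 1.96 on the log2 scale (adjusted p = 0.00202), BRCA2 by 1.66 (adjusted p = 0.003) and FANCB by 1.91 (adjusted p = 0.0033). RAD50 (-0.96, adjusted p = 0.00981) and RAD51C (-1.03, adjusted p = 0.042) were the 2 genes that were lower in PA-1. RBBP8 (-0.33) and ATR (-0.16) did not pass. The lower TOV21G hairpin libraries enter these averages, but among controls alone 31 of 37 genes were also higher in PA-1 (49.7% of all genes), with a median difference of 0.58 on the log2 scale. Of the 38, 12 passed when PA-1 hairpin 1 was left out and 14 when PA-1 hairpin 2 was. Over all genes the calls fell too, to 3778 and 3849 in these fits, against 6837 with all libraries.

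FANCF, the core subunit that links other core members and whose gene is a single exon at chr11:22622533-22625823 (minus strand), differed most. It averaged 16.4 ± 1.47 CPM in PA-1 (SD over 3 libraries) and had 0 counts in each of the 3 TOV21G libraries, where 3 counts would be 0.195 to 0.202 CPM. Its PA-1 level was thus at least 81-fold higher than the floor of a TOV21G library, a limit that covers counting error only. An exon of GAS2 on the opposite strand overlaps FANCF, and the strand setting of the counting is not given. The part of GAS2 reads in the PA-1 value was not tested. FANCF passed the filter on low counts only through PA-1, so its test between the lines is no support and is not given. Since FANCF was at 0 with the control hairpin too, no effect of MEX3A depletion on it can be read in TOV21G.

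Between genes, levels were compared as TPM, which is per length. UBE2T (79.9 to 92.5 TPM over the 3 PA-1 libraries), RBBP8 (74.5 to 89.9), FANCI (67.5 to 87.9) and CHEK1 (63.3 to 82.9) had the highest means in PA-1. NBN (65.9 to 74.4), FANCL (66.2 to 74.1) and RAD51AP1 (57.5 to 77.0) overlap FANCI and CHEK1, so these ranks are not separated. In PA-1 the lowest were RAD51D (5.62 to 7.4 TPM) and RAD51B (5.80 to 9.29 TPM), whose ranges overlap. FANCM (7.83 to 10.4 TPM) overlaps RAD51B, and FANCF was above all 3 at 11.2 to 12.4 TPM. In TOV21G, RBBP8 (53 to 116 TPM), RAD51C (47.1 to 84.8 TPM) and UBE2T (31.8 to 85.2 TPM) had the highest means, and their wide ranges overlap. CHEK1, next in order at 26.2 to 48.6 TPM, overlaps RAD51C and UBE2T. BRCA2 was near the bottom there, at 3.39 to 7.63 TPM, with FANCM at 1.83 to 5.05 TPM and FANCF at 0.

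**Figure D4:**
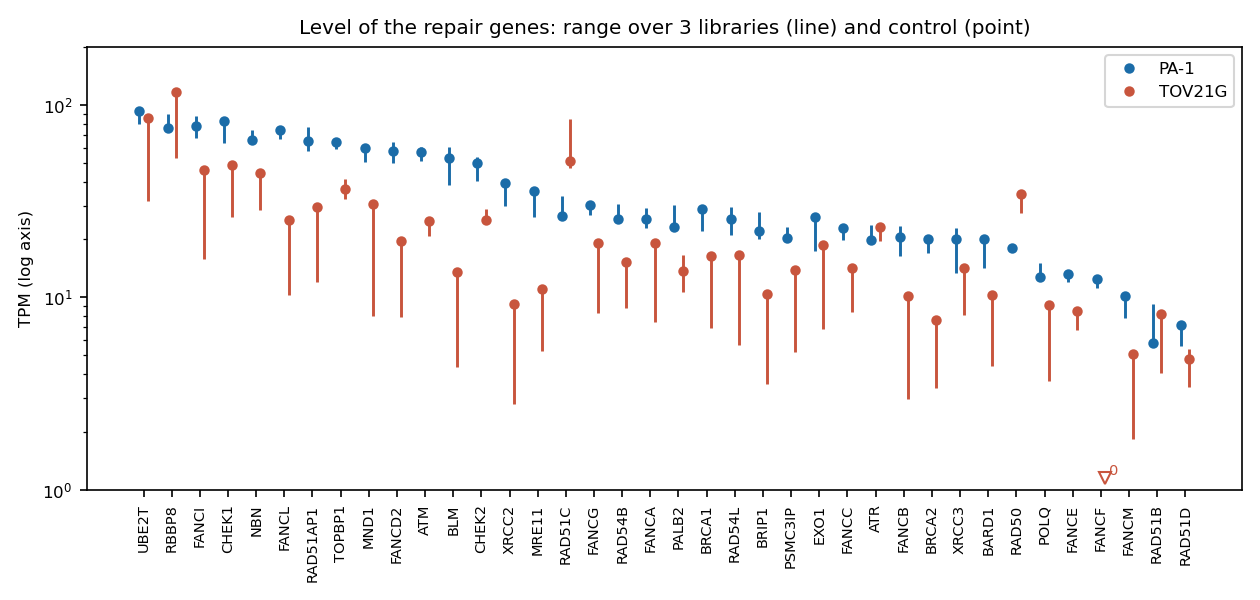
TPM on a log axis of the 38 repair genes, ordered by the PA-1 mean; lines span the lowest to the highest of 3 libraries and points are the control library, PA-1 in blue and TOV21G in red. FANCF is drawn as an open triangle at the bottom for TOV21G, where it was 0; RAD51C and RAD50 are the genes whose TOV21G line lies wholly above the PA-1 line.

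Other repair genes and cell cycle genes were read from lists of the same kind. Of 67 further recombination and Fanconi genes, 65 were measured, and their median was -0.41 on the log2 scale in TOV21G and -0.13 in PA-1. In TOV21G 44 of the 65 were lower with both hairpins (31.9% of all genes) and 6 were higher with both (31.3%). CENPS, a partner of FANCM, had 3.43 and 4.84 CPM with the TOV21G hairpins, against 14.1 CPM in the control (-1.77, SE 0.35). CLSPN, an adaptor of CHEK1, had 26.6 and 26.4 CPM, against 59.6 CPM (-1.17, SE 0.23). The 10 genes of nonhomologous end joining, which rejoins breaks without a template, had a median of -0.08 in TOV21G and -0.02 in PA-1. With both TOV21G hairpins 5 of the 10 were lower (31.9% of all genes) and 1 was higher (31.3%). PRKDC, its kinase, had 794 and 675 CPM with the TOV21G hairpins, against 912 CPM (-0.31, SE 0.23). Base excision, nucleotide excision and mismatch repair genes had a TOV21G median of -0.26 over 44 genes and 0.00 in PA-1. Of the 44, 25 were lower with both TOV21G hairpins (31.9% of all genes) and 8 were higher with both (31.3%). Of the lists, edgeR called 0 genes in either line, and DESeq2 called 0 genes of the 3 repair lists. Over all genes edgeR also called 0, and in TOV21G DESeq2 called 0.783% lower and 0.558% higher.

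Proliferation markers had a lower TOV21G median than the repair genes. Their median log2 fold change was -1.15 over 25 genes in TOV21G and -0.26 in PA-1. With both TOV21G hairpins 23 of the 25 were lower (31.9% of all genes) and 1 was higher (31.3%). At least 2-fold lower with both were 14 (3.36% of all genes). Summed over the list they reached 1603 and 1226 CPM with the TOV21G hairpins, against 3056 CPM in the control, while the 38 repair genes summed to 1067 and 1015 CPM, against 1621 CPM. In PA-1 the sums were 4281 and 3918 CPM with the hairpins, against 4921 CPM in the control, for the proliferation markers, and 2280 and 2149 CPM, against 2363 CPM, for the repair genes. RRM2, the small subunit of ribonucleotide reductase, had 71.5 and 68.5 CPM with the TOV21G hairpins, against 218 CPM (-1.64, SE 0.22, DESeq2 adjusted p = 0.000264). E2F1 was lower too (-1.59, DESeq2 adjusted p = 0.0422). DESeq2 called 12 of the 25 lower in TOV21G (0.783% of all genes) and 0 higher (0.558%). The part of the proliferation markers in the repair gene values was not tested. The TOV21G hairpin libraries also had higher values of the nuclear RNA MALAT1, 9429 and 18455 CPM next to 4315 CPM in the control, and its part was not tested.

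**Figure D5:**
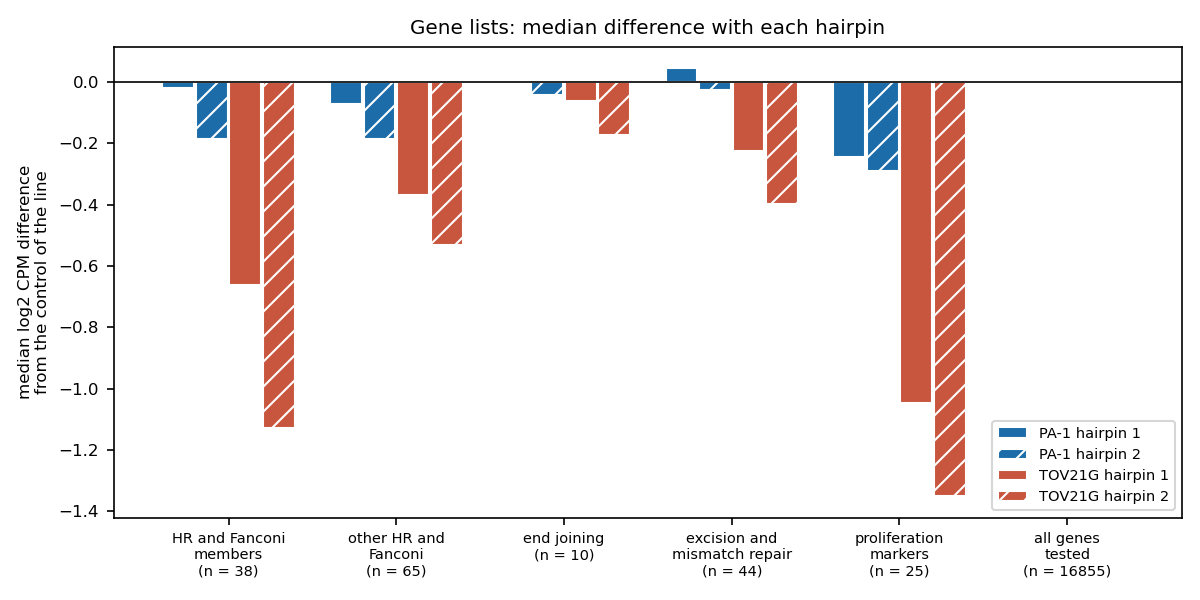
Median difference in log2 CPM from the control of the line for each gene list (bars), plain for hairpin 1 and hatched for hairpin 2, PA-1 in blue and TOV21G in red; n is the number of measured genes. In TOV21G the repair genes have medians of -0.66 and -1.13, the end-joining genes lie near 0, and the proliferation markers lie lowest. The TOV21G medians of the repair genes count FANCF, which had no reads there, as 0.

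Within the repair genes, the TOV21G fold change was set beside the promoter letters. The 11 genes with an E2F match in a window had a median of -1.08, against -0.73 for the 23 without one, with ranges of -1.55 to -0.06 and -1.21 to 0.26 that overlap. For CCAAT the medians were -0.92 with a match and -0.94 without. These are descriptions of the list without a test. Across the 38 genes, the PA-1 and TOV21G fold changes had a Pearson correlation of 0.25 and a Spearman correlation of 0.17. Over all genes these were 0.19 and 0.26. The 38 include FANCF, whose TOV21G value was set at 0 because it had no reads there. Genes are not independent replicates, and the control library of each line is shared by all of them.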

How the data were processed

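Each of the 6 libraries was deposited by the authors as an RSEM table of genes, giving expected counts and TPM. Per the submitters' processing notes, cutadapt 1.12, STAR 2.5.3a, RSEM 1.2.31, edgeR 3.26.8 and the build hg38 were used. The strand setting of the counting is not given in the sources used here, while the library kit marks strand per the labels. Exons of 22 of the 39 genes overlap another gene, 19 of them one on the opposite strand, and 11 had expected counts that were not whole (beyond 0.005 of a read), the way RSEM apportions reads shared between genes. Values of these genes are less certain.

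Expected counts were rounded and tested in edgeR 4.0.16 under R 4.3.3 (TMM, filterByExpr on 4 groups, quasi-likelihood F test, 1 mean per group, 2 residual degrees of freedom, Benjamini-Hochberg over all 16855 genes). DESeq2 1.42.0 was an alternative. SE is the absolute log2 fold change over the square root of F. Differences of a hairpin from its control used log2 CPM with a prior count of 2, and a floor of 3 counts was 0.153 to 0.202 CPM, covering counting error only. The code was tested on simulated data. Each line has 1 control, assumed to vary like the hairpins. Hairpin numbers mark reagents and pair no samples. Genes and lists were chosen with earlier results of these data known. Per-library values were printed for genes named by fixed rules: the 8 smallest p per line, 4 for the difference between lines, 4 per direction of level, and BRCA1, BRCA2, FANCD2, ATM and FANCF, with MEX3A, CDKN1A and MDM2 always given. Some genes of the lists are not reported here.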

Additional observations from a re-analysis of the deposited data

How the results depend on the processing

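With each alternative normalization, filter, length offset and single-line fit, edgeR called 0 of the 38 genes in either line's knockdown contrast. DESeq2 called 2 in TOV21G. For MEX3A it gave -1.53 in PA-1 (adjusted p = 0.0478) and -1.09 in TOV21G (adjusted p = 0.164). Leaving out each hairpin library gave 0 to 18 genes past the threshold in TOV21G (0 to 1643 over all genes), 0 to 5 for the mean of both lines (0 to 664 over all genes), 12 to 34 for the level difference between the lines (3778 to 9963 over all genes), and MEX3A values of -1.74 to -1.32 in PA-1 and -1.24 to -0.97 in TOV21G. The highest count in TOV21G and the MEX3A value of -1.24 (adjusted p = 0.045) came without TOV21G hairpin 1. On TPM, 10 genes were lower with both hairpins in PA-1 (19 on CPM, and 16 on TPM relative to the all-gene median), and 3 were at least 2-fold lower with both in TOV21G (5 on CPM). Single-gene values were recomputed for 19 of the 38, and of these the fold changes that turned sign when a library was left out ranged in PA-1 over -0.0641 to 0.0117 (RAD50), -0.0161 to 0.1685 (RBBP8), -0.206 to 0.0906 (FANCI), -0.1726 to 0.0628 (FANCD2) and -0.1547 to 0.0951 (FANCA), and in TOV21G over -0.2117 to 0.615 (RAD51C) and -0.2095 to 0.0408 (ATM). The cause was not tested.

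With the hairpin number as a replicate block, which pairs reagents and not samples, 0 of the 38 passed in either line, 31 passed for the level difference (8229 over all genes, against 6837 without the block), and the PA-1 values of FANCI (0.0692), FANCD2 (0.0515), FANCA (0.145), MND1 (0.0021) and FANCB (0.0022) turned positive. Over all genes, the difference between hairpins 2 and 1 in the lines had a Pearson correlation of 0.24. Each line has 1 control library, which no alternative could leave out, so every knockdown value rests on it. A gene under the floor of 3 counts, 0.153 to 0.202 CPM, could be at 0.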
